A study of Homo sapiens with 18 samples.

Results

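The genes described here encode the machinery that builds ribosomes in the nucleolus: snoRNA-guided modification enzymes, nucleolar chaperones, RNA polymerase I subunits and the assembly factors of both ribosomal subunits. They were taken by name from a list of 52 gene symbols of the pathway. That rule uses no measured value, but the list was chosen with earlier results of these data known. The deposited table held 50 of the 52 genes under the listed symbol, and UTP4 was found through its Ensembl identifier under its older symbol, CIRH1A. These 51 genes were measured among 12381 genes with a mean of at least 10 normalised reads, out of 17155 genes in the table. BOP1, the remaining listed gene, was not analysed here. The lowest mean of the 51 over the 18 libraries was 422 normalised reads (PPAN) and the highest was 38126 (NCL), so the expression filter removed none of them.

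The study measured polyadenylated RNA in GM12878, an established lymphoblastoid line of B cells transformed by Epstein-Barr virus, after CRISPR knockout of single NF-κB subunits. NF-κB is a family of dimeric transcription factors that the viral membrane protein LMP1 keeps active in such cells. Cells were transduced with lentivirus carrying a guide RNA for control, cRel, p50, p52, RelA or RelB, and were selected with 3 µg/ml puromycin for 5 days, after which each knockout was checked by immunoblot. Each of the 6 groups held 3 libraries, called biological replicates in the labels. All 18 libraries, controls included, carry the genotype label "Wildtype LMP1" and the same puromycin selection. The labels describe transduced, selected cells and no single-cell clones, and they do not state whether the replicates came from separate transductions. The p-values thus set group differences against the spread between libraries of the same group, whatever these replicates represent. In polyadenylated RNA from whole cultures, fewer cells of a type and less RNA per cell cannot be told apart.

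Ribosome production begins with RNA polymerase I, which transcribes a long precursor ribosomal RNA in the nucleolus. Box C/D snoRNPs methylate this precursor and box H/ACA snoRNPs convert uridines in it to pseudouridine, while the small subunit processome folds and cleaves it. Separate sets of helicases, GTPases, nucleases and placeholder proteins then bring the 40S and 60S particles to maturity. Growing lymphoblastoid cells make ribosomes at a high rate, and many of these genes are textbook targets of MYC, which binds the E-box sequence CACGTG together with MAX.

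RefSeq promoter windows of GRCh38.p14, running from 250 bases before to 50 bases from the annotated start, were available for 44 of the 51 genes. The windows held no entry for NOP58, NOLC1, POLR1E, RRP12, RRS1, DDX18 and RRP1B. CACGTG, which reads the same on both strands, occurred in 17 of the 44 windows (38.6%), against 10.3% of 9331 windows of tested genes and 7.26% of all 35116 windows of the same length. In 15 of the 44 (34.1%) it began within 40 bases of the start, against 3.34% of the tested genes. The κB motif, the sequence bound by NF-κB, was searched on both strands and occurred in 5 of 44 windows (11.4%), against 12.9% of tested genes and 11.3% of all windows. Such a match is a description of the letters in the window and no measurement of binding.

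Of the 9 stretches printed here, each 85 bases long and running from 60 bases before the start to 25 from it, the first 6 show how close to the start the E-box lies in genes of both subunit pathways. The last 3 belong to genes on which the results below turn and hold no E-box in their windows. Sequences are RefSeq, GRCh38.p14, written 5′ to 3′ on the strand of the gene, with the E-box in capitals.
MRTO4: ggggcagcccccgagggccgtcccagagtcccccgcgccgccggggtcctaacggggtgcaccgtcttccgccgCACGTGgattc
PNO1: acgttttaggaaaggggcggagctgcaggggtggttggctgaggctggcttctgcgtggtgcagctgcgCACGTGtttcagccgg
GNL2: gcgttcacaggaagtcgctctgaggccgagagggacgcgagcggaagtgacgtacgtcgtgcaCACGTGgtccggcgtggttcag
WDR43: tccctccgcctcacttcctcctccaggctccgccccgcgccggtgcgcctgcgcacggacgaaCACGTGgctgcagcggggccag
UTP4: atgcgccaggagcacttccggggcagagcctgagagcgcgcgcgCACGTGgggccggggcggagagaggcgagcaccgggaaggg
RRP9: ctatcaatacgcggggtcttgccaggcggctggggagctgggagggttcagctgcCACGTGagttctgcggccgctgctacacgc
NOP56: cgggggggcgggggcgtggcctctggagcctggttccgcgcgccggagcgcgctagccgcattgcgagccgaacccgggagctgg
LYAR: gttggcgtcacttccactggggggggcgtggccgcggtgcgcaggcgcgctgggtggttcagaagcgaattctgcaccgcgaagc
TAF1D: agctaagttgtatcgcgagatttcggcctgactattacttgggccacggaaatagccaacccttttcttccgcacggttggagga
These stretches lie at chr1:19251745-19251829 (plus strand) for MRTO4, chr2:68157828-68157912 (plus) for PNO1, chr1:37595913-37595997 (minus) for GNL2, chr2:28894607-28894691 (plus) for WDR43, chr16:69132589-69132673 (plus) for UTP4 and chr3:51941880-51941964 (minus) for RRP9. NOP56 lies at chr20:2652572-2652656 (plus), LYAR at chr4:4290130-4290214 (minus) and TAF1D at chr11:93741471-93741555 (minus). The E-box began 16 bases before the start in UTP4 and at base 15 from the start in MRTO4, so the capitals fall on either side of the start.

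Libraries held between 15179664 and 37473129 assigned reads. In 3 libraries (the third control, the third p52 and the second RelA library) gene values leaned toward short transcripts relative to their own group. Rank correlations across genes between exon length and the deviation from the group mean were -0.45, -0.38 and -0.31 there. The other 2 control libraries stood at 0.24 and 0.36. Deviations within a group balance each other, so these positive values follow in part from the third control library. A lean shared by a whole group would not show in this measure. The targeted mRNA was lower in the libraries labelled p50 (NFKB1 1.51-fold lower), p52 (NFKB2 1.36-fold lower) and RelA (RELA 1.61-fold lower). In the RelA libraries the fall was not confined to RELA. There 4 of the 5 NF-κB subunit genes were called lower, and the lowest log2 fold change, -0.82, belonged to a subunit gene other than RELA. REL stood at 1554, 1717 and 856 in the controls, and 1298, 1315 and 1282 in the cRel-labelled libraries, with no call, and RELB was 1.24-fold higher in the libraries labelled RelB. Since their own targeted mRNA was not called lower, these last 2 groups are called cRel-labelled and RelB-labelled throughout. The names refer to the mRNA alone and say nothing of the protein, which was checked by immunoblot. For REL the first and second controls lay above all cRel-labelled libraries, while the third lay below them. All 12 B-cell markers on the list were expressed, with summed values of 66848 to 87142 normalised reads per library.

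Most of the 51 genes were lower in the RelB-labelled, p52 and p50 libraries. In the RelB-labelled libraries 48 of 51 genes fell and 1 rose, in the p52 libraries 44 fell, and in the p50 libraries 31 fell. The median log2 fold change over the 51 genes was -0.58, -0.42 and -0.23 in these knockouts, while the median over all genes tested was within 0.02 of 0 in every knockout. In the cRel-labelled libraries 4 genes fell with a median of -0.14, and in the RelA libraries 1 fell with a median of -0.11. Without the third control library the RelA median was -0.04, with 38 genes in place of 45 below 0. The largest changes were a 2.46-fold lower level of RRS1 and a 2.27-fold lower level of LYAR in the RelB-labelled libraries.

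Calls were made with limma on log2(normalised reads + 1) at a Benjamini-Hochberg adjusted p under 0.05 over all 12381 genes, and fold changes are on that scale. The share of all tested genes called lower was 34.7% in the RelB-labelled libraries against 94.1% of the 51, 26.4% in the p52 libraries against 86.3%, and 19.6% in the p50 libraries against 60.8%. In the cRel-labelled libraries 1.92% of all genes were called lower, against 7.84% of the 51, and in the RelA libraries 2.63% against 1.96%. For the RelA libraries the share of the 51 was thus near that of all genes. The shares of all genes called higher were 33.1%, 24.5%, 17%, 4.17% and 2.92% in the RelB-labelled, p52, p50, cRel-labelled and RelA libraries. Apart from TAF1D in the RelB-labelled libraries, 0 of the 51 were called higher in any knockout by limma, edgeR or DESeq2. Before adjustment, limma gave 1 further rise with p below 0.05, that of POLR1A in the cRel-labelled libraries. Without the 3 libraries that lean toward short transcripts the numbers of fallen genes were 49, 45, 32, 3 and 1 in the RelB-labelled, p52, p50, cRel-labelled and RelA libraries, and FBL joined as 1 risen gene in p50 (log2 fold change 0.20).

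Library by library, the median deviation of the 51 genes from their control mean was -0.06, -0.03 and 0.08 in the controls. It was -0.65, -0.51 and -0.57 in the RelB-labelled libraries and -0.44, -0.47 and -0.41 in the p52 libraries. These 2 groups lay apart from each other and from all other libraries. The p50 libraries stood at -0.18, -0.22 and -0.23, below the cRel-labelled libraries at -0.12, -0.10 and -0.16 without overlap. The RelA libraries stood at -0.11, -0.05 and -0.09, and 1 of them lay within the range of the controls. The order from the control downward was thus RelA, cRel-labelled, p50, p52 and RelB-labelled, of which RelA and cRel-labelled overlapped with each other.

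**Figure D1:**
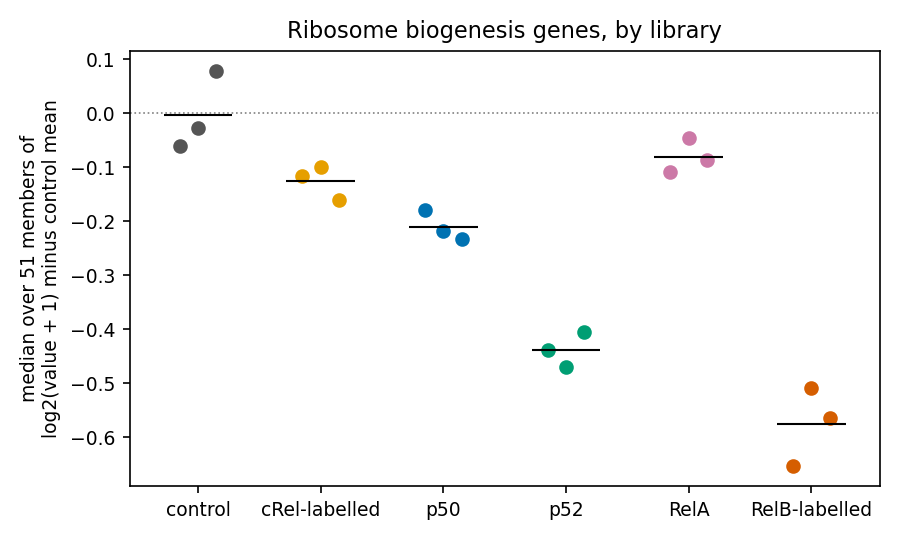
Median over the 51 ribosome biogenesis genes of log2(value + 1) minus the control mean, one point per library and a bar at the mean of the 3 libraries of each group. The RelB-labelled libraries sit between -0.65 and -0.51 and the p52 libraries between -0.47 and -0.41, below all libraries of the other groups.

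The same decline showed in the share of all assigned reads. The 51 genes took 1.12% ± 0.018 of reads in the controls (SD, n = 3 here and below), 1.09% ± 0.010 in the RelA, 1.07% ± 0.028 in the cRel-labelled and 1.06% ± 0.022 in the p50 libraries. The share was 0.908% ± 0.038 in the p52 libraries and 0.802% ± 0.022 in the RelB-labelled libraries. The p52 and RelB-labelled groups overlapped with no other. The other 9 knockout libraries lay just below the lowest control, at 1.10%, but the second RelA library did not when NPM1 and NCL were left out (0.7304% against 0.7298% in the first control). Without the 2 most abundant genes, NPM1 and NCL, the share went from 0.745% ± 0.014 in the controls to 0.542% ± 0.015 in the RelB-labelled libraries. Genes of the ribosomal proteins themselves took 6.71% ± 0.67 of reads in the controls, 6.08% ± 0.16 in the cRel-labelled, 7.50% ± 0.46 in the p50, 7.97% ± 1.18 in the p52, 5.97% ± 0.24 in the RelA and 9.16% ± 0.47 in the RelB-labelled libraries. Only the RelB-labelled libraries lay above all controls in that share without overlap, and its part in the lower share of the 51 genes was not tested.

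In the control libraries the levels per kilobase of exon spanned a wide range. NPM1 stood highest at 11006 normalised reads per kilobase, followed by NCL at 6610.2, FBL at 4150.4 and DDX21 at 3031. The lowest were POLR1C at 157, PPAN at 170.0 and UTP15 at 185. By role, the median level per kilobase was 2866 for the chaperones and organisers, 2345 for the box C/D genes and 1437 for the box H/ACA genes. It was 710.5 for the 60S, 647 for the 40S, 510.3 for the processome and 343 for the polymerase genes.

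The box C/D snoRNP is represented by its methyltransferase FBL and the scaffold proteins NOP56 and NOP58. NOP56 and NOP58 fell in the p50, p52 and RelB-labelled libraries, and FBL fell in the RelB-labelled libraries alone among the 5 comparisons. Median log2 fold changes of the 3 genes were -0.37 in p50, -0.54 in p52 and -0.76 in the RelB-labelled libraries. NOP56 stood at 7177, 7697 and 8882 in the controls, 7102, 6746 and 6746 in the cRel-labelled libraries, 6162, 5799 and 5828 in the p50 libraries, 4842, 4855 and 4969.9 in the p52 libraries, 7235, 7879 and 7217 in the RelA libraries, and 3657, 3751 and 3527 in the RelB-labelled libraries (normalised reads, as for every value by library below). All 9 libraries of the p50, p52 and RelB-labelled groups lay below all controls, and the 3 groups did not overlap with each other. NOP56 was 2.16-fold lower (log2 fold change -1.11, SE 0.07, limma adjusted p = 2.9e-12) in the RelB-labelled libraries, 1.61-fold lower in p52 (adjusted p = 2.6e-08) and 1.33-fold lower in p50 (adjusted p = 5.2e-05). NOP58 was 1.70-fold lower in the RelB-labelled libraries (adjusted p = 9.2e-10).

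FBL, the most abundant of the 3, stood at 8844, 8188 and 10024 in the controls, 8033, 8504 and 7382 in the cRel-labelled libraries, 9348, 10962 and 9183 in the p50 libraries, 7858, 7994 and 9887 in the p52 libraries, 7608, 8393 and 7135 in the RelA libraries, and 7155, 7654 and 7582 in the RelB-labelled libraries. The p50 libraries overlapped with the controls at the top, and the RelB-labelled libraries lay just below all controls. FBL was 1.20-fold lower (log2 fold change -0.27, SE 0.09, limma adjusted p = 0.013) in the RelB-labelled libraries, and this call was lost without the third control library, without the first RelB-labelled library and after quantile normalisation. Although its partners NOP56 and NOP58 fell in p50, FBL was 1.09-fold higher there without a call (adjusted p = 0.30). FBL carries an E-box 7 bases from its start and NOP56 carries none in its window.

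The box H/ACA snoRNP joins the pseudouridine synthase DKC1 with GAR1, NHP2 and NOP10. All 4 fell in the p50, p52 and RelB-labelled libraries, and GAR1 also fell in the cRel-labelled libraries. The medians of the 4 genes were -0.31, -0.45 and -0.60 in the first 3 of these groups. The p50 calls of NHP2 and NOP10 were lost without the third control library (adjusted p = 0.12 for each) and without the second p50 library, and that of NHP2 also without the third p50 library. GAR1 stood at 1170.0, 1197 and 1302 in the controls, 1074, 1002 and 983 in the cRel-labelled libraries, 887, 808 and 954 in the p50 libraries, 747, 741 and 824 in the p52 libraries, 1153, 1247 and 1217 in the RelA libraries, and 538, 553 and 551 in the RelB-labelled libraries. The RelB-labelled libraries held less than the other 15 libraries, and the RelA libraries overlapped with the controls. GAR1 was 2.23-fold lower (log2 fold change -1.16, SE 0.07, limma adjusted p = 4.8e-12) in the RelB-labelled libraries, 1.59-fold lower in p52, 1.39-fold lower in p50 and 1.20-fold lower in the cRel-labelled libraries (adjusted p = 1.1e-07, 2.8e-05 and 0.026).

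DKC1, whose inherited defects cause dyskeratosis congenita, stood at 5986, 5941 and 6364 in the controls, 5701, 5808 and 5441 in the cRel-labelled libraries, 5116, 5595 and 5088 in the p50 libraries, 4206, 4257 and 4737 in the p52 libraries, 5665, 6039 and 5941 in the RelA libraries, and 3832, 3945 and 3704 in the RelB-labelled libraries. Each of the p50, p52 and RelB-labelled groups lay below the controls, with the RelB-labelled libraries lowest. DKC1 was 1.59-fold lower (log2 fold change -0.67, SE 0.06, limma adjusted p = 1.8e-09) in the RelB-labelled libraries and 1.16-fold lower in p50 (adjusted p = 0.0081), the latter call being lost after quantile normalisation. NHP2 and NOP10 changed less, by -0.53 and -0.37 on the log2 scale in the RelB-labelled libraries (adjusted p = 6.9e-05 and 0.0020). NOP10 stood at 1481, 1311 and 1849.8 in the controls, and 1162, 1084 and 1382 in the p52 libraries, and these groups overlapped although the gene was called in p52.

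Nucleolar chaperones and organisers comprised NCL (nucleolin), NPM1 (nucleophosmin), its relative NPM3, the snoRNP chaperone NOLC1 and the growth-associated nucleolar protein LYAR. All 5 fell in the RelB-labelled libraries, 4 in p52, 3 in p50 and 1, LYAR, in the cRel-labelled libraries. The medians were -0.63 in the RelB-labelled, -0.49 in the p52 and -0.17 in the p50 libraries. LYAR stood at 2424, 2459 and 3079 in the controls, 2128, 1979 and 2096 in the cRel-labelled libraries, 1877, 1615 and 1781 in the p50 libraries, 1363, 1396 and 1729 in the p52 libraries, 2126, 2305 and 2059 in the RelA libraries, and 1082, 1184 and 1217 in the RelB-labelled libraries. Every knockout library lay below every control, and the RelB-labelled libraries lay below all others. LYAR was 2.27-fold lower (log2 fold change -1.18, SE 0.09, limma adjusted p = 2.2e-10) in the RelB-labelled libraries, 1.77-fold lower (log2 fold change -0.83, SE 0.09, limma adjusted p = 2.1e-07) in p52 and 1.50-fold lower (log2 fold change -0.59, SE 0.09, limma adjusted p = 4.5e-05) in p50. In the cRel-labelled libraries it was 1.28-fold lower (adjusted p = 0.022), and in the RelA libraries 1.22-fold lower without a call (adjusted p = 0.073). It led the p50 and p52 comparisons among the 51 genes and came next to RRS1 in the RelB-labelled libraries.

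NCL, which had the highest mean read count of the 51 but stood below NPM1 per kilobase, stood at 44563, 45839 and 47004 in the controls, 43436, 44712 and 41025 in the cRel-labelled libraries, 37568, 38933 and 36585 in the p50 libraries, 29497, 30332 and 31305 in the p52 libraries, 43803, 46027 and 44185 in the RelA libraries, and 26092, 28410.4 and 26955 in the RelB-labelled libraries. Its replicates were close, and the p50, p52 and RelB-labelled groups formed 3 separate steps below the controls. NCL was 1.69-fold lower (log2 fold change -0.75, SE 0.06, limma adjusted p = 4.4e-10) in the RelB-labelled libraries and 1.51-fold lower in p52 (adjusted p = 8.3e-08). In p50 it was 1.22-fold lower (limma adjusted p = 0.0011), a call that was lost after quantile normalisation (adjusted p = 0.12). NPM1 had a mean of 42132 ± 3083 in the controls and 30701 ± 1725 in the RelB-labelled libraries (adjusted p = 7.4e-05). In p52 its libraries spread from 32913 to 43809 and overlapped with the controls (adjusted p = 0.075). NPM1 has 45 named pseudogenes in the annotation, and reads could be shared with them. NOLC1 fell slightly more in p52 (1.40-fold) than in the RelB-labelled libraries (1.34-fold), a difference that the direct comparison did not call (adjusted p = 0.42).

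RNA polymerase I and its coupled factors behaved least uniformly. In the RelB-labelled libraries 4 of 6 fell and 1 rose, in p52 4 fell, and in p50 only DDX21 fell. The medians of -0.36, -0.32 and -0.03 were the smallest of the 7 roles in each of these groups. DDX21, an RNA helicase that acts in both ribosomal RNA transcription and processing, stood at 15112, 15673 and 14862 in the controls, 14692, 14324 and 14076 in the cRel-labelled libraries, 12940.4, 11776 and 12013 in the p50 libraries, 10764, 10679 and 10189 in the p52 libraries, 15048, 14282 and 15191 in the RelA libraries, and 9665, 10613 and 9954 in the RelB-labelled libraries. The p50, p52 and RelB-labelled libraries lay below all controls, and the p52 and RelB-labelled libraries overlapped with each other. DDX21 was 1.51-fold lower (log2 fold change -0.60, SE 0.06, limma adjusted p = 6.0e-09) in the RelB-labelled libraries and 1.44-fold lower in p52 (adjusted p = 1.4e-07).

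POLR1C, a subunit that RNA polymerases I and III share, was 1.65-fold lower (log2 fold change -0.72, SE 0.08, limma adjusted p = 5.3e-08) in the RelB-labelled libraries and was not called in p52 (adjusted p = 0.054) or p50 (adjusted p = 0.96). POLR1A, the largest subunit, was 1.28-fold lower in p52 (adjusted p = 0.0086), with 1 library above the lowest control, and was not called in the RelB-labelled libraries (adjusted p = 0.081). The p52 call was lost without the second control or the third p52 library (adjusted p up to 0.077). POLR1A was called lower in the RelB-labelled libraries in 5 alternative fits, among them that without the third control library (adjusted p = 0.014). POLR1B, the next largest subunit, fell 1.32-fold in p52 and 1.33-fold in the RelB-labelled libraries (adjusted p = 9.6e-06 and 2.7e-06). POLR1E fell in the cRel-labelled, p52 and RelB-labelled libraries, by 1.16-fold, 1.22-fold and 1.23-fold, and its call in the cRel-labelled libraries was lost in 9 alternative fits.

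TAF1D, a subunit of the selectivity factor that brings RNA polymerase I to the ribosomal DNA promoter, was the exception to the shared direction. It stood at 2938, 2884 and 2999 in the controls, 2538, 2537 and 2598 in the cRel-labelled libraries, 2873, 3123 and 3141 in the p50 libraries, 2630.0, 2907 and 3448 in the p52 libraries, 2435, 2536 and 2627 in the RelA libraries, and 4068, 4192 and 4559 in the RelB-labelled libraries. All RelB-labelled libraries lay above the other 15, and the cRel-labelled and RelA libraries lay below the controls without a call. TAF1D was 1.45-fold higher (log2 fold change 0.54, SE 0.07, limma adjusted p = 1.3e-06) in the RelB-labelled libraries, with a call in every alternative fit. The TAF1D locus holds 8 snoRNA genes and shares exon sequence on the opposite strand with CEP295, C11orf54 and MED17. Its window carries no E-box.

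**Figure D2:**
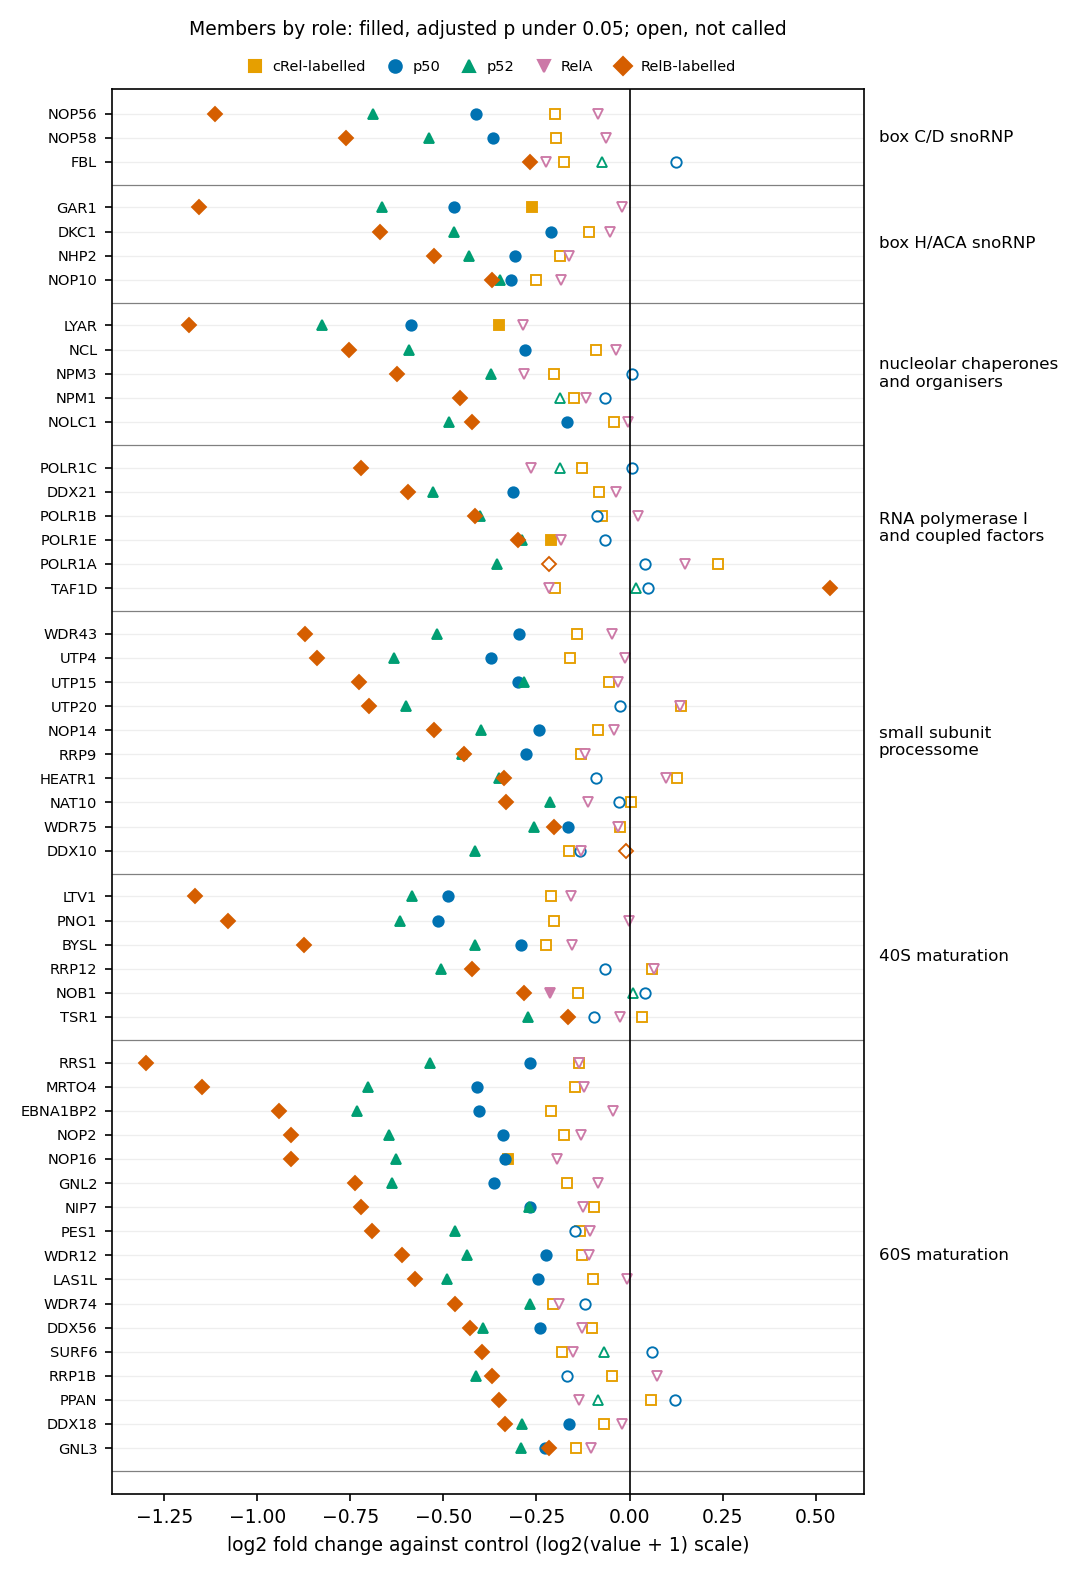
Log2 fold change against the control for each of the 51 genes, grouped by role, with one symbol per knockout; filled symbols passed the adjusted p of 0.05 and open symbols did not. Diamonds for the RelB-labelled libraries lie farthest left for most genes, down to -1.30 for RRS1, and TAF1D alone has a filled symbol to the right of 0.

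The small subunit processome, which assembles on the U3 snoRNA and the early precursor, was covered by 10 genes. All 10 fell in p52, 9 in the RelB-labelled libraries and 6 in p50, with median log2 fold changes of -0.41, -0.48 and -0.20. WDR43, a member of the subcomplex that binds first to the precursor, stood at 5643, 5592 and 5021 in the controls, 5113, 4774 and 4828 in the cRel-labelled libraries, 4713, 4106 and 4424 in the p50 libraries, 3940.2, 3798 and 3609 in the p52 libraries, 5421, 4846 and 5457 in the RelA libraries, and 2929, 2996 and 2951 in the RelB-labelled libraries. The RelB-labelled libraries were tightly grouped, with a mean of 2959 ± 33.7, below every other library. WDR43 was 1.83-fold lower (log2 fold change -0.87, SE 0.06, limma adjusted p = 1.1e-10) in the RelB-labelled libraries and 1.43-fold lower in p52 (adjusted p = 9.7e-07). The other members of that subcomplex named here, UTP4, UTP15, HEATR1 and WDR75, fell in the RelB-labelled libraries by 1.79-fold, 1.66-fold, 1.26-fold and 1.15-fold. The WDR75 call there was lost after quantile normalisation (limma adjusted p = 0.11). UTP15 fell to the same degree in p50 and p52 (log2 fold changes -0.30 and -0.28).

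DDX10, a helicase, fell in p52 alone among the 5 comparisons. Its values were 1677, 1726 and 1919 in the controls, 1273, 1221 and 1503 in the p52 libraries, and 1684, 1717 and 1887 in the RelB-labelled libraries, so that the RelB-labelled libraries overlapped with the controls and the p52 libraries did not. It was 1.33-fold lower in p52 (adjusted p = 7.3e-05), and the direct comparison of p52 with the RelB-labelled libraries gave a log2 difference of -0.41 (adjusted p = 1.1e-04). UTP20, a large scaffold protein, fell in p52 and the RelB-labelled libraries (1.52-fold and 1.62-fold) and had a log2 fold change of -0.03 in p50 (adjusted p = 0.86). NAT10, which acetylates ribosomal RNA, fell by 1.16-fold and 1.26-fold in these groups, with the p52 call lost after quantile normalisation.

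Late 40S maturation was covered by 6 genes, of which 6 fell in the RelB-labelled libraries, 5 in p52 and 3 in p50, with medians of -0.65, -0.46 and -0.19. LTV1, an assembly factor that holds the head of the subunit in an immature state, stood at 1893, 1839 and 2155 in the controls, 1751, 1723 and 1607 in the cRel-labelled libraries, 1435, 1391 and 1366 in the p50 libraries, 1227, 1228 and 1478 in the p52 libraries, 1647, 1841 and 1788 in the RelA libraries, and 889, 877 and 847 in the RelB-labelled libraries. The RelB-labelled libraries held at most 889 normalised reads, while no other library held fewer than 1227. LTV1 was 2.25-fold lower (log2 fold change -1.17, SE 0.07, limma adjusted p = 9.9e-12) in the RelB-labelled libraries, 1.50-fold lower in p52 and 1.40-fold lower in p50 (adjusted p = 1.3e-06 and 3.6e-05). PNO1, the partner of the endonuclease NOB1, stood at 1212, 1372 and 1545 in the controls, 1180.4, 1164 and 1225 in the cRel-labelled libraries, 1079, 828 and 985 in the p50 libraries, 887, 922 and 872 in the p52 libraries, 1347, 1382 and 1372 in the RelA libraries, and 604, 653 and 691 in the RelB-labelled libraries. The RelA libraries lay within the controls, and the p50, p52 and RelB-labelled libraries all lay below them. PNO1 was 2.11-fold lower (log2 fold change -1.08, SE 0.09, limma adjusted p = 3.8e-10) in the RelB-labelled libraries and 1.43-fold lower in p50 (adjusted p = 9.9e-05).

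NOB1, the endonuclease that trims the end of the small ribosomal RNA, differed from its partner. It stood at 2351, 2316 and 2481 in the controls, 2225, 2111 and 2152 in the cRel-labelled libraries, 2496, 2411 and 2441 in the p50 libraries, 2437, 2396 and 2363 in the p52 libraries, 2003, 2188 and 1975 in the RelA libraries, and 1954, 1877 and 2044 in the RelB-labelled libraries. The p50 and p52 libraries lay within or around the controls, and the cRel-labelled, RelA and RelB-labelled libraries lay below them. NOB1 was 1.16-fold lower (log2 fold change -0.21, SE 0.06, limma adjusted p = 0.024) in the RelA libraries, the only one of the 51 genes called there, and 1.22-fold lower in the RelB-labelled libraries (adjusted p = 1.2e-04). The call in the RelA libraries was lost in 5 of the alternative fits, namely after quantile normalisation, without the first or the third control library and without the first or the third RelA library, with an adjusted p up to 0.12. Set directly against each other, p50 and RelA libraries differed in NOB1 by 0.25 on the log2 scale (adjusted p = 0.0010).

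TSR1, a GTPase-like factor that keeps immature subunits from translating, had the highest read count of the late 40S factors, although NOB1, LTV1 and BYSL stood above it per kilobase. It stood at 3307, 3573 and 3469 in the controls, 3464, 3622 and 3498 in the cRel-labelled libraries, 3185, 3289.6 and 3208 in the p50 libraries, 2784, 3033 and 2747 in the p52 libraries, 3416, 3391 and 3349 in the RelA libraries, and 3008, 3186 and 3028 in the RelB-labelled libraries. The p52 group had the lowest mean, and it overlapped with the RelB-labelled libraries. TSR1 was 1.21-fold lower (log2 fold change -0.27, SE 0.05, limma adjusted p = 2.1e-04) in p52 and 1.12-fold lower in the RelB-labelled libraries (adjusted p = 0.0094), the latter call being lost after quantile normalisation. RRP12, an export factor, fell by 1.42-fold in p52 and 1.34-fold in the RelB-labelled libraries, and BYSL fell by 1.22-fold, 1.33-fold and 1.83-fold in p50, p52 and the RelB-labelled libraries.

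The 60S pathway was covered by 17 genes, of which 17 fell in the RelB-labelled libraries, 15 in p52, 12 in p50 and 1 in the cRel-labelled libraries, with medians of -0.61, -0.44, -0.24 and -0.14. RRS1, which helps to place the 5S ribonucleoprotein in the large subunit, stood at 1472, 1590.1 and 1612 in the controls, 1442, 1384 and 1424 in the cRel-labelled libraries, 1412, 1289 and 1190.1 in the p50 libraries, 1113, 1088 and 1021 in the p52 libraries, 1461, 1508 and 1291 in the RelA libraries, and 599, 709 and 594 in the RelB-labelled libraries. The RelB-labelled libraries ranged from 594 to 709 and no other library lay below 1021. RRS1 was 2.46-fold lower (log2 fold change -1.30, SE 0.08, limma adjusted p = 4.4e-12) in the RelB-labelled libraries, the largest change among the 51 genes in any comparison with the control, and 1.45-fold lower in p52 (adjusted p = 7.1e-06). In p50 it was 1.20-fold lower (adjusted p = 0.011), with a call that was lost without the third p50 library.

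MRTO4, a placeholder for the ribosomal stalk, stood at 3426, 3738 and 4372 in the controls, 3562, 3446 and 3357 in the cRel-labelled libraries, 3028, 2787 and 2832 in the p50 libraries, 2323, 2267 and 2459 in the p52 libraries, 3409, 3883 and 3271 in the RelA libraries, and 1584, 1791 and 1807 in the RelB-labelled libraries. The p50, p52 and RelB-labelled groups were 3 separate steps below the controls, while the cRel-labelled and RelA libraries overlapped with them. MRTO4 was 2.22-fold lower (log2 fold change -1.15, SE 0.08, limma adjusted p = 3.3e-11) in the RelB-labelled libraries and 1.63-fold lower in p52 (adjusted p = 2.4e-07). Its E-box lies just inside the transcribed stretch shown above.

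EBNA1BP2, an assembly factor first found as a partner of the Epstein-Barr virus protein EBNA1, stood at 3169, 3261 and 3866 in the controls, 3000.4, 3068 and 2793 in the cRel-labelled libraries, 2631, 2492 and 2632 in the p50 libraries, 1925, 1981 and 2286 in the p52 libraries, 3266, 3515 and 3166 in the RelA libraries, and 1602, 1904 and 1849.9 in the RelB-labelled libraries. Its highest control library was the third, and its RelB-labelled and p52 libraries lay near each other. EBNA1BP2 was 1.66-fold lower (log2 fold change -0.73, SE 0.08, limma adjusted p = 1.8e-07) in p52, 1.32-fold lower in p50 and 1.92-fold lower in the RelB-labelled libraries (adjusted p = 5.4e-04 and 1.1e-09).

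NOP2, a methyltransferase of the large ribosomal RNA, stood at 3916, 4150.3 and 4522 in the controls, 3793, 3609 and 3715 in the cRel-labelled libraries, 3537, 3136 and 3273 in the p50 libraries, 2853, 2675 and 2507 in the p52 libraries, 3795, 3946 and 3745 in the RelA libraries, and 2190.1, 2306 and 2191 in the RelB-labelled libraries. Each knockout other than RelA lay below the controls without overlap, in the order cRel-labelled, p50, p52 and RelB-labelled. NOP2 was 1.88-fold lower (log2 fold change -0.91, SE 0.06, limma adjusted p = 3.9e-11) in the RelB-labelled libraries, and its log2 fold change of -0.18 in the cRel-labelled libraries was not called (adjusted p = 0.11). NOP16, a small nucleolar protein known as a MYC-responsive gene, stood at 1601, 1707 and 2057 in the controls, 1439.8, 1419 and 1395 in the cRel-labelled libraries, 1427, 1394 and 1407 in the p50 libraries, 1122, 1100.4 and 1232 in the p52 libraries, 1518, 1583 and 1558 in the RelA libraries, and 973, 883 and 985 in the RelB-labelled libraries. It was the gene with the smallest adjusted p among the 51 in the cRel-labelled libraries, where it was 1.25-fold lower (log2 fold change -0.33, SE 0.07, limma adjusted p = 0.0080). NOP16 was 1.88-fold lower in the RelB-labelled libraries (adjusted p = 5.0e-10).

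GNL3 (nucleostemin), the most abundant of the 60S factors, stood at 6091, 6084 and 6613 in the controls, 5449, 5943 and 5625 in the cRel-labelled libraries, 5115, 5524 and 5402 in the p50 libraries, 4651, 5085 and 5652 in the p52 libraries, 5611, 5891 and 5978 in the RelA libraries, and 5391, 5338 and 5430.3 in the RelB-labelled libraries. All 15 knockout libraries lay below the controls, and the third p52 library lay within the range of the cRel-labelled group. GNL3 was 1.22-fold lower (log2 fold change -0.29, SE 0.06, limma adjusted p = 6.6e-04) in p52, 1.17-fold lower in p50 and 1.16-fold lower in the RelB-labelled libraries (adjusted p = 0.0083 and 0.0052), with all 3 calls lost after quantile normalisation. Its GTPase relative GNL2 fell further, by 1.67-fold in the RelB-labelled libraries and 1.56-fold in p52. GNL3 and NOP10 were the 2 genes of the 51 without a call in the F-test among the 5 knockouts (limma adjusted p = 0.074 and 0.35).

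PES1 and WDR12, which form a trimer with BOP1 on the early large subunit, fell by 1.62-fold and 1.53-fold in the RelB-labelled libraries and by 1.38-fold and 1.35-fold in p52, and in p50 WDR12 was called (adjusted p = 0.0039) and PES1 was not (adjusted p = 0.12). The nuclease LAS1L and the helicases DDX18 and DDX56 fell in all 3 of these knockouts, by 1.49-fold, 1.26-fold and 1.35-fold in the RelB-labelled libraries. The p50 calls of DDX18 and DDX56 were lost without the third control library and after quantile normalisation (adjusted p up to 0.52 and 0.074), and that of DDX18 also without the third p50 library. PPAN and SURF6 fell in the RelB-labelled libraries alone among the 5 comparisons, by 1.27-fold and 1.32-fold, and in p50 their log2 fold changes were 0.12 and 0.06 without a call. PPAN shares exon sequence on its own strand with P2RY11 and a readthrough transcript, so its reads may be split. WDR74, NIP7 and RRP1B fell by 1.39-fold, 1.65-fold and 1.29-fold in the RelB-labelled libraries.

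**Figure D3:**
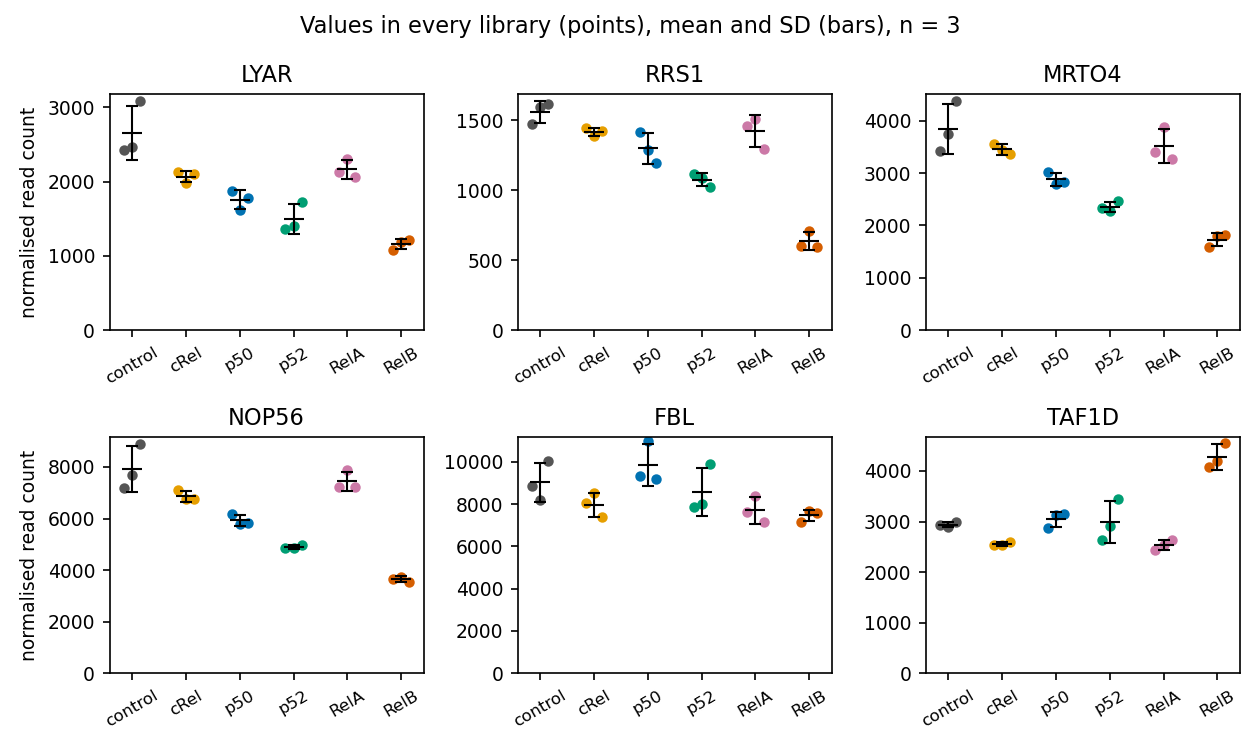
Normalised reads of LYAR, RRS1, MRTO4, NOP56, FBL and TAF1D in every library, with points for libraries and bars for the mean and SD of 3 libraries. The RelB-labelled points lie below all others for the first 4 genes (594 to 709 for RRS1), overlap with other knockouts for FBL and lie above all others for TAF1D (4068 to 4559).

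The set of knockouts in which a gene fell divided the 51 genes into a few groups. In 28 genes the fall was called in p50, p52 and the RelB-labelled libraries, and in GAR1, LYAR and NOP16 also in the cRel-labelled libraries. Another 10 genes fell in p52 and the RelB-labelled libraries without a call in p50: NPM3, POLR1B, UTP20, HEATR1, NAT10, TSR1, RRP12, PES1, WDR74 and RRP1B. FBL, NPM1, POLR1C, PPAN and SURF6 fell in the RelB-labelled libraries alone, and POLR1A and DDX10 in p52 alone. Without the third control library, the p50 calls of NHP2, NOP10, NOLC1, WDR75, RRP9, DDX18 and DDX56 were lost. The RelB-labelled libraries had the lowest mean of the 6 groups in 40 genes, p52 in 10 and RelA in 1 (TAF1D), while the controls had the highest mean in 36. These comparisons share the same 3 control libraries, and a call in one knockout without a call in another is no test of a difference between them.

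Among the 4 calls in the cRel-labelled libraries, 0 remained without the third control library. The adjusted p values there were 0.068 for NOP16, 0.14 for GAR1, 0.17 for LYAR and 0.15 for POLR1E. Without the second or without the third cRel-labelled library 1 of the 4 calls remained, that of NOP16. DESeq2 on the recovered reads called 7 genes lower in this comparison and edgeR called 3.

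Differences between knockouts were tested by an F-test and in 4 pairs, and p50 was not tested directly against p52. Among the 5 knockouts 49 of the 51 genes differed by the limma F-test, against 78.8% of all genes tested. The smallest adjusted p values of that test belonged to NOP56 (2.8e-11), RRS1 (3.5e-11) and GAR1 (4.5e-11). In p52 minus the RelB-labelled libraries 26 genes were higher and 2 were lower, against 23.9% and 21.5% of all genes tested, with a median log2 difference of 0.19. RRS1 was 1.70-fold higher in p52 (adjusted p = 6.6e-08) and LTV1 1.50-fold higher (adjusted p = 1.5e-06), while TAF1D and DDX10 were the 2 genes that were lower. The polymerase subunit POLR1C was 1.45-fold higher in p52 (adjusted p = 1.1e-05).

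In p50 minus the RelB-labelled libraries 43 genes were higher and 1, TAF1D, was lower, against 27.7% and 25.4% of all genes tested, and the median log2 difference was 0.39. RRS1 again differed most, being 2.05-fold higher in p50 (adjusted p = 5.3e-10). NHP2, NOP10, RRP9, TSR1, WDR75, GNL3 and DDX10 did not pass the test here, with log2 differences from -0.13 for DDX10 to 0.22 for NHP2.

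In p50 minus RelA libraries, where both subunits belong to the classical dimer, 21 genes were lower and 7 were higher in p50, against 20% and 19.2% of all genes tested. The median log2 difference was -0.14. PNO1 was 1.43-fold lower (adjusted p = 7.8e-05) and GAR1 1.37-fold lower (adjusted p = 3.1e-05) in p50. The 7 genes that were higher in p50 were FBL, NPM3, POLR1C, TAF1D, NOB1, PPAN and SURF6, led by FBL at 1.27-fold (adjusted p = 0.0043). In p50 minus the cRel-labelled libraries 12 genes were lower and 4 higher, against 15.9% and 15.3% of all genes tested. The 4 higher genes were FBL, TAF1D, NOB1 and SURF6. This last count rose from 16 to 30 without the 3 libraries that lean toward short transcripts and was 10 after quantile normalisation. It was 7 without the first cRel-labelled or the second p50 library and 10 without the third p50 library.

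The rest of the pathway moved the same way in the RelB-labelled, p52 and p50 libraries. A list of 122 further genes, also chosen with earlier results known, covered RNA polymerase I, the small and large subunits, snoRNP assembly and the RNA exosome. It had 97 lower and 4 higher in the RelB-labelled libraries, 86 lower and 1 higher in p52, and 61 lower and 2 higher in p50. Among all genes tested 34.7%, 26.4% and 19.6% were called lower in these groups, and 33.1%, 24.5% and 17% higher. In the cRel-labelled libraries 3 of the 122 were lower, against 1.92% of all genes. In the RelA libraries 0 were lower and 1 was higher, against 2.63% and 2.92% of all genes. Median log2 fold changes were -0.42, -0.32, -0.19, -0.09 and -0.06 in that order. The other small subunit factors had 33 of 37 lower in the RelB-labelled libraries, and the other snoRNP and nucleolar factors 13 of 14. The other RNA polymerase I genes had 9 of 15 lower, the lowest share of the 5 lists. That list includes POLR2E, POLR2F, POLR2H, POLR2K and POLR2L, subunits shared with other RNA polymerases.

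Among these genes NOL11, a processome factor, was 2.01-fold lower in the RelB-labelled libraries (adjusted p = 4.6e-12) and 1.59-fold lower in p52. URB2, a large subunit factor, was 2.25-fold lower in the RelB-labelled libraries (adjusted p = 8.1e-12) and 1.30-fold lower in p52, and had a log2 fold change of -0.14 in p50 without a call. POLR1G, an RNA polymerase I subunit, stood at 178, 209 and 241 in the controls, and 72.9, 101 and 92.9 in the RelB-labelled libraries, with no overlap, and was 2.34-fold lower. TCOF1, the Treacher Collins protein that promotes ribosomal RNA transcription, was 1.73-fold lower in p52 and 1.91-fold lower in the RelB-labelled libraries (adjusted p = 3.4e-07 and 8.6e-09). DNTTIP2 was 2.11-fold lower in the RelB-labelled libraries. The helicase DDX47 went the other way, 2.59-fold higher in the RelB-labelled libraries at low values (38.6, 41.4 and 40.1 in the controls, and 106, 104 and 105 in the RelB-labelled libraries).

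**Figure D4:**
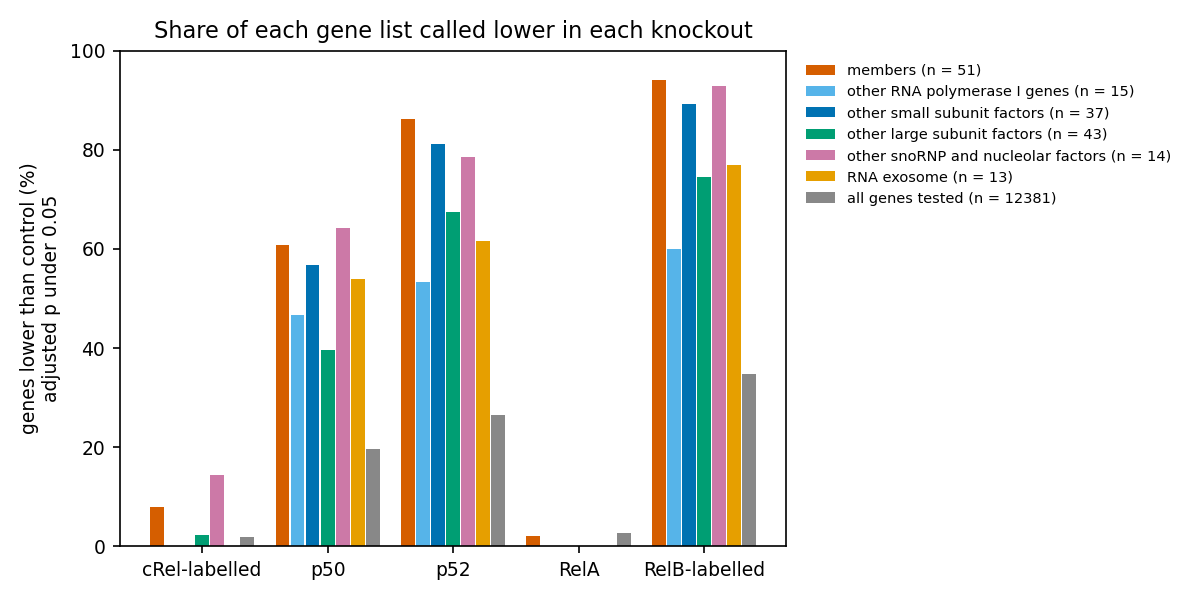
Percent of each gene list called lower than the control (adjusted p under 0.05), by knockout, for the 51 genes, 5 lists of other pathway genes and all 12381 genes tested. In the RelB-labelled libraries the bar of the 51 genes stands at 94.1% and that of all genes at 34.7%, with the other lists between them.

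MYC, the transcription factor for which many of these genes are known targets, moved with them in some knockouts and against them in the RelB-labelled libraries. It stood at 8017, 7339 and 7983 in the controls, 6157, 5705 and 5835 in the cRel-labelled libraries, 9846, 7094 and 7645 in the p50 libraries, 6446, 5473 and 5563 in the p52 libraries, 8016, 7342 and 7930.5 in the RelA libraries, and 20173, 19874 and 19308 in the RelB-labelled libraries. The lowest RelB-labelled library, at 19308, lay far above the highest of the other 15, at 9846. MYC mRNA was 2.54-fold higher (log2 fold change 1.35, SE 0.09, limma adjusted p = 1.3e-11) in the RelB-labelled libraries, where the 51 genes were lowest, 1.34-fold lower in p52 and 1.32-fold lower in the cRel-labelled libraries (adjusted p = 3.9e-04 and 0.0060). In p50 and RelA its log2 fold changes were 0.06 and -0.00 without a call. Its partner MAX was not called in any knockout, with log2 fold changes from -0.06 to 0.08. MXI1, a repressor that competes with MYC for MAX, stood at low values of 49.6, 57.2 and 49.8 in the controls. It rose to 152, 191 and 210.2 in the RelB-labelled libraries, which is 3.46-fold higher (adjusted p = 2.9e-08). MXI1 was 3.06-fold higher in p52 and 2.07-fold higher in p50. MXD1, of the same family, was 2.35-fold higher in the RelB-labelled libraries (adjusted p = 1.5e-08) and was also called higher in RelA. The 12 tested genes of the MYC and MAX network had log2 fold changes down to -0.40 in the RelB-labelled libraries. There 3 rose and 2, not named here, fell. The counts were 3 and 2 in p52, 3 and 0 in p50, 2 and 0 in RelA, and 0 and 1 in the cRel-labelled libraries. Of all genes tested, 33.1% rose and 34.7% fell in the RelB-labelled libraries. The part of these genes in the lower levels of the 51 genes was not tested.

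The 17 genes with an E-box in the window had median log2 fold changes of -0.74, -0.52 and -0.30 in the RelB-labelled, p52 and p50 libraries. The 27 genes with a window and no E-box had -0.53, -0.37 and -0.21. Both sets lay below 0 in the 3 knockouts. In the RelB-labelled libraries the genes that changed most included NOP56, LYAR and GAR1 without a match and LTV1, MRTO4 and PNO1 with one. RRS1, which fell most there, had no window. The part of the E-box in these changes was not tested. In the cRel-labelled and RelA libraries the medians were -0.17 and -0.11 with an E-box and -0.13 and -0.11 without.

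Proliferation genes moved together with the ribosome genes. Of 26 cell cycle genes, 26 fell in the RelB-labelled libraries, 26 in p52 and 25 in p50, with medians of -0.92, -0.62 and -0.40. Among all genes tested 34.7%, 26.4% and 19.6% were called lower in these groups. In the cRel-labelled libraries 0 of the 26 were called and in the RelA libraries 1 was called higher, with medians of -0.10 and -0.04. Their summed values ranged from 169377 to 176197 in the controls, from 126257 to 143313 in p50, from 110864 to 121329 in p52 and from 93598 to 97247 in the RelB-labelled libraries. Their part in the lower levels of the 51 genes was not tested.

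Markers of other blood cells were read beside these changes. The 8 monocyte and macrophage markers measured summed to 519 to 544 in the controls, 567 to 656 in the cRel-labelled, 828 to 906 in the p50, 841 to 945 in the p52, 465 to 506 in the RelA and 910 to 984 in the RelB-labelled libraries. CSF1R and ITGAM, which carried most of these sums, rose in p50, p52 and the RelB-labelled libraries, while CD14 did not exceed 3.16 normalised reads in any library. Of the 2 monocyte and macrophage markers tested, 1 was also called higher in the cRel-labelled libraries, by 1.04 on the log2 scale. The 8 T and NK cell markers measured summed to 444 to 594 in the controls, 471 to 506 in p50, 530 to 600 in p52, 747 to 822 in the RelB-labelled, 357 to 380 in the cRel-labelled and 478 to 553 in the RelA libraries, mostly from NKG7, and CD3D did not exceed 1.63 in any library. Of the 5 of them tested, 2 were called higher in the RelB-labelled libraries. In each of the cRel-labelled, p50, p52 and RelB-labelled groups 1 was called lower. The lowest log2 fold changes among the 5 were -1.60 in p50, -1.61 in p52 and -1.75 in the RelB-labelled libraries. The B-cell markers summed to 68505 to 72477 in the controls, 74844.5 to 78345 in the cRel-labelled and 82351 to 87142 in the RelB-labelled libraries. Their sums were 66848 to 70576 in p50, 72469 to 73768 in p52 and 67509 to 70397 in RelA. The part of these markers in the lower levels of the 51 genes was not tested.

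Exon length moved with the small changes in the cRel-labelled and RelA libraries. Across the 51 genes the rank correlation of the log2 fold change with exon length was 0.59 in the cRel-labelled and 0.57 in the RelA libraries, against 0.30 and 0.27 over all genes tested. It was 0.29 in p50, 0.28 in the RelB-labelled libraries and 0.07 in p52. All these values share the 3 control libraries, of which the third leaned toward short transcripts, and the part of that library in the correlations was not tested. The 51 genes had a median exon length of 4.25 kb against 5.08 kb for the genes tested. Of the 51 genes, 10 host snoRNA genes in the annotation used, among them GNL3 with 6 and NOP56 with 5, and 20 share exon sequence with a gene on the opposite strand, and the strand setting of the counting was not given in the sources used here.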

How the data were processed

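GM12878 polyadenylated RNA was measured in 18 libraries (6 groups of 3, grouped by sample title). Per the submitters' processing notes, STAR 2.5.2b, featureCounts 1.5.1, DESeq2 1.14.1 and GRCh37 were used; annotation and strand setting were not given in the sources used here. The deposited signal is gene read counts that the authors divided by DESeq2 size factors. Whole reads were recovered from it for 100.0% of 308790 values (within 0.0001). Libraries held 15179664 to 37473129 reads, and each of the 51 genes had a mean of at least 422 normalised reads, so the spread between libraries limits precision.

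The main test was limma 3.58.1 (R 4.3.3; eBayes with trend) on log2(value + 1), fitted once to the 18 libraries together, for genes with a mean of at least 10, two-sided, with Benjamini-Hochberg adjustment within each comparison at 0.05. The 4 pairs of knockouts and the F-test came from the same fit. edgeR 4.0.16 and DESeq2 1.42.0 on the recovered reads, pseudocounts of 0.5 and 5, no filter, a mean of at least 100, TMM, quantile normalisation, a replicate block and leaving out each library were alternatives, and leaving out 3 libraries together was added after seeing the data. The test was checked on simulated counts with a small set of changed genes in p50 alone and no lean by transcript length. That setting is simpler than these data and does not cover such libraries or groups with many changes. Exon lengths, overlaps and pseudogene names come from GENCODE 29 (GRCh38), promoter windows from RefSeq (GRCh38.p14).

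The genes and lists were chosen with earlier results of these data known. Values in all 18 libraries are given for the 3 called genes with the largest change and no overlap in each knockout, the 6 with the smallest F-test p and the gene with the highest mean read count of each role, plus MYC and, chosen after its values were seen, TAF1D. From each further list at most 2 called genes with the largest change are named. MAX was named after its values were seen. Of 206 entries on the other lists, 193 were found. Protein sequences were not used here.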

Additional observations from a re-analysis of the deposited data

How the results depend on the processing

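No call of the 51 genes reversed in direction under any alternative, and the median of all genes moved by under 0.1 on the log2 scale under each scaling. Under other settings 176 summary values stayed close to those reported and 9 moved, and with a library left out 363 stayed and 17 moved. Quantile normalisation gave medians of -0.13 in p50, -0.32 in p52 and -0.44 in the RelB-labelled libraries, 1 risen gene (FBL) in p50, 0 fallen genes in RelA and 10 differences between p50 and cRel-labelled libraries. It kept 24 of the 31 main calls in p50, 42 of 44 in p52 and 45 of 49 in the RelB-labelled libraries. DESeq2 called 7 genes lower in the cRel-labelled and 4 in the RelA libraries. Without the 3 libraries that lean toward short transcripts, p50 had 1 risen gene (FBL) and p50 and cRel-labelled libraries differed in 30 genes. Leaving out 1 library at a time gave 0 to 6 fallen genes in the cRel-labelled libraries, 0 to 5 in RelA, 25 to 32 in p50, 43 to 45 in p52 and 47 to 49 in the RelB-labelled libraries, and 7 to 22 differences between p50 and cRel-labelled libraries. The latter numbered 7 without the first cRel-labelled or the second p50 library and 10 without the third p50 library. In RelA the count was 0 without the first or the third library of the control or RelA group, 4 without the second control library and 5 without the third p52 library. In p50 the calls of NOLC1 and WDR75 were lost in 8 and 9 alternatives. The cause of these shifts was not tested. With a replicate block, fallen genes numbered 6, 32, 46, 4 and 49 in the cRel-labelled, p50, p52, RelA and RelB-labelled libraries. The main fit did not pair the samples by replicate number. In 0 of 5 knockouts did every same-numbered library correlate above 0.1 with its control. Still, 16 of 18 libraries correlated best with one of their own number when set against libraries of other groups. Correlations with the controls alone cannot decide whether libraries of one number share a source, and the count of 16 rests on libraries of all other groups. A shared source was not tested further, and the main fit does not allow for one.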
